A study of Mus musculus with 16 samples.

Results

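The genes described here are 36 markers of the 3 main glial classes of the brain, followed pool by pool through 16 arrays of mouse mitral cells. They were taken by name: 16 markers of astrocytes and radial glia, 12 of the oligodendrocyte lineage and 8 of microglia. Each was found on the array through the RefSeq accession of its probe, and all 36 were matched, out of 20124 named genes. Mitral cells are output neurons of the olfactory bulb. The cells came from ICR mice in which plasmids had been introduced by electroporation in utero at embryonic day 12. Control cells carried pCAG-EYFP alone, and Kir2.1 cells carried pCAG-EYFP and pCAG-Kir2.1, in which the CAG promoter drives each gene. Kir2.1 is a potassium channel that holds neurons near rest and so makes them fire less. Olfactory bulbs were dissociated at postnatal day 3 (P3) or postnatal day 6 (P6), and fluorescent cells were picked singly with a glass capillary. Single-cell cDNA went through 30 PCR cycles, and cells with EYFP and Pcdh21 (the gene Cdhr1, a mitral and tufted cell marker) transcripts were kept, while no test for glial transcripts is named in the labels. The 4 groups, P3 control, P3 Kir2.1, P6 control and P6 Kir2.1, each held 4 pools of 10 cells. The question put here is which glial RNA was measured in which pool, and whether it differed between the groups.

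Astrocytes take up glutamate and potassium at synapses and arise from radial glia, with which they share several markers. Oligodendrocytes make myelin, and their precursors divide and spread through the brain in the first weeks after birth. Microglia are the resident macrophages of the brain, and they bring complement to synapses that are being removed. In the olfactory bulb a further glial class, the ensheathing cells, wraps the axons that arrive from the nose, and it shares markers such as Fabp7 and Sox10 with the other classes. Radial glia are also the precursors from which mitral cells are born.

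Every level below is the log2 processed signal of a gene's brightest probe minus the log2 75th percentile of its array. That percentile, here and in the figures, is taken over the 12103 probes marked as well above background on all 16 arrays. A level of 0 equals it, and a step of 1 is a doubling. Lists of 4 values run from pool 1 to pool 4 of a group. A gene is called detected in a pool where the scanner software marked its probe as well above background. Levels depend on the probe, so they are compared between pools of 1 gene and not between genes. Between 34.3% and 41.1% of all probes were detected on an array, and the dimmest detected probe of an array lay between -8.27 and -6.90. Cdhr1, the gene used to keep cells, lay between 2.25 and 3.94 and was detected in all 16 pools. The number of animals behind the pools is not in the labels, so p-values refer to the spread among pools, and some of that spread may be technical. All P3 arrays lay on 1 slide and all P6 arrays on another, which means that an effect of age cannot be told apart from one of the slide. On each slide the control pools lay in row 1 and the Kir2.1 pools in row 2, so row and treatment cannot be told apart. In pooled samples, fewer cells of a type and less RNA per cell cannot be told apart either.

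Glial markers were detected in every pool, and the pools of P6 control cells differed most among themselves. Of the 36 markers, 15 (41.7%) were detected in all 16 pools, 21 (58.3%) in 1 to 15 pools and 0 in none. Over the 20124 named genes these shares were 32.1%, 43.7% and 24.2%. The markers detected in all pools were Fabp7, Vim, Clu, Glul, Aldh1l1 and Aqp4 among astrocyte and radial glia markers, Olig1, Sox10, Mbp, Mog, Mag and Bcas1 in the oligodendrocyte lineage, and Itgam, Csf1r and C1qb among microglia markers. Across the 16 pools the SD of a level had a median of 0.79 over these 15 markers, from 0.38 for Mog to 2.19 for Sox10, against 0.76 over the 6460 named genes detected in all pools. Aqp4, Mag and C1qb lay low, with medians of -6.05, -6.54 and -5.85 over the pools. The dimmest detected probe of an array lay between -8.27 and -6.90. Whether readings at such levels are RNA of the gene was not tested.

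The number of markers detected was 21, 20, 20 and 22 in the P3 control pools (20.8 ± 0.957, SD, n = 4) and 25, 23, 20 and 22 in the P3 Kir2.1 pools (22.5 ± 2.08, SD, n = 4). It was 33, 20, 29 and 24 in the P6 control pools (26.5 ± 5.69, SD, n = 4) and 23, 23, 25 and 25 in the P6 Kir2.1 pools (24 ± 1.15, SD, n = 4). Pools 1 and 3 of P6 control thus held the most markers. By the software's more lenient positive and significant flag, P6 control pool 1 still held the most (34), but P3 Kir2.1 pool 1 (31) passed P6 control pool 3 (30). By the well-above-background flag, P6 control pool 2 held as few as the lowest P3 pools. Among the 21 markers with a variable presence, P6 control pool 1 held 18 (85.7%), pool 3 held 14 (66.7%), pool 4 held 9 (42.9%) and pool 2 held 5 (23.8%). All 8791 named genes with a variable presence were detected at 55.2%, 40.7%, 41.2% and 40.3% in these 4 pools, in the order 1, 3, 4 and 2. The other 12 pools held 5 to 10 of the 21 markers. By class, the 5 variable microglia markers averaged 3 ± 1.15 detected in P6 control (SD, n = 4), against 0.75 ± 0.957 in P3 control, 1.25 ± 0.5 in P3 Kir2.1 and 0.75 ± 0.5 in P6 Kir2.1. The P6 control pools held 4, 2, 4 and 2 of these 5 markers and the P6 Kir2.1 pools 0, 1, 1 and 1, which did not overlap. By the positive and significant flag they were 5, 2, 4 and 3 against 0, 1, 2 and 3, which did. C1qa and C1qc are among these 5 markers only or mostly through P6 control pools. All 8791 named genes with a variable presence were detected at 47.2%, 48.8%, 38.5% and 53.7% in P6 Kir2.1 pools 1 to 4. These counts carry no test.

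**Figure D1:**
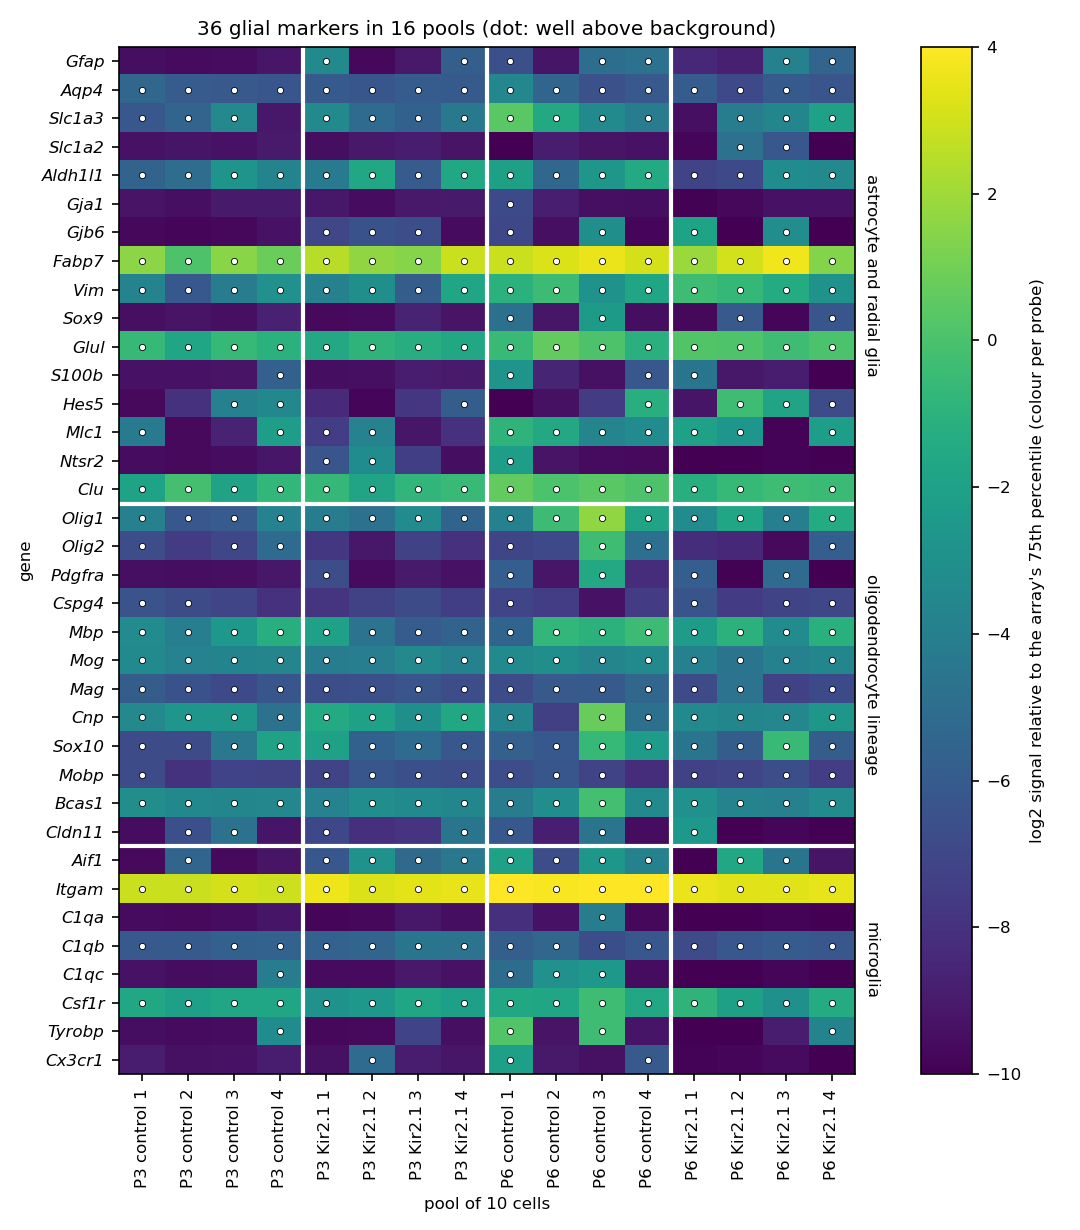
Log2 signal of the 36 glial markers (rows, by class) relative to the array's 75th percentile (colour) in the 16 pools of 10 cells (columns, by group). A dot marks a probe well above background. Rows with dots throughout are the 15 markers detected in all pools, and the columns of P6 control pools 1 and 3 carry the most dots (33 and 29).

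**Figure D2:**
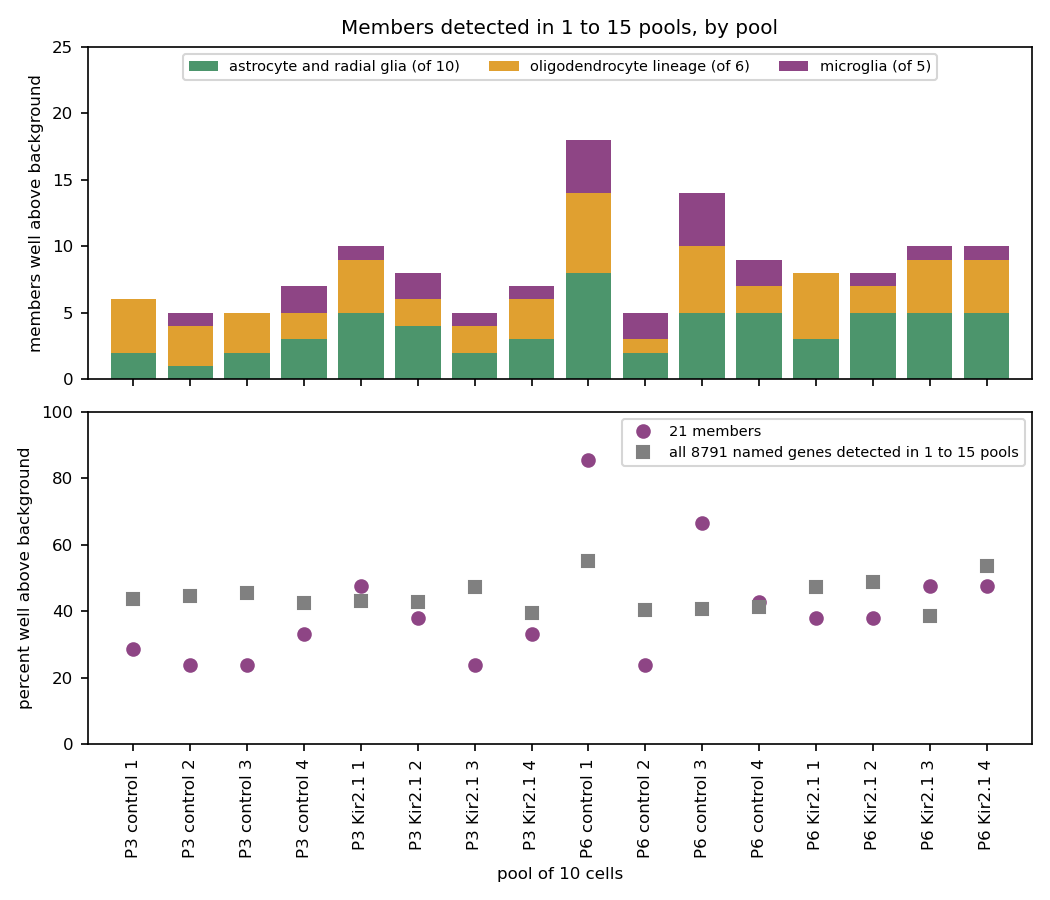
The upper panel stacks, for each pool, the number of markers detected among the 21 with a variable presence, coloured by class. The lower panel gives the same count as a percentage beside that of all 8791 named genes with a variable presence, and P6 control pools 1 and 3 stand at 85.7% and 66.7% against 55.2% and 40.7%.

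Fabp7 and Vim, the markers shared by radial glia and young astrocytes, were higher in P6 control pools than in P3 control pools without overlap. Fabp7 encodes a fatty acid binding protein of radial glia and ensheathing cells. Fabp7 read 1.55, 0.08, 1.49 and 0.87 in P3 control, 2.48, 1.69, 1.48 and 2.90 in P3 Kir2.1, 2.87, 3.29, 3.57 and 3.09 in P6 control and 1.87, 3.05, 3.69 and 1.39 in P6 Kir2.1. All P6 control pools lay above all P3 control pools, whereas the P6 Kir2.1 pools overlapped every other group. Vim encodes vimentin, the intermediate filament of radial glia. Vim read -3.73, -6.16, -4.06 and -2.94 in P3 control, -3.85, -3.00, -5.87 and -1.75 in P3 Kir2.1, -1.07, -0.42, -2.80 and -1.69 in P6 control and -0.32, -0.69, -1.39 and -2.82 in P6 Kir2.1. The P6 control pools lay above the P3 control pools, with the nearest pools at -2.80 and -2.94, and the P6 Kir2.1 pools overlapped the P6 control pools.

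Clu and Glul, secreted and metabolic products of astrocytes, were present in all pools. Clu encodes clusterin, an extracellular chaperone. Clu read -1.88, -0.12, -1.96 and -0.75 in P3 control, -0.66, -1.85, -0.76 and -0.59 in P3 Kir2.1, 0.64, 0.04, 0.44 and 0.08 in P6 control and -1.21, -0.62, -0.37 and -0.47 in P6 Kir2.1. The 4 P6 control pools were the highest, above both the P3 control and the P6 Kir2.1 pools without overlap. Glul encodes glutamine synthetase, with which astrocytes recycle glutamate. Glul read -0.62, -1.80, -0.60 and -1.06 in P3 control, -1.53, -0.91, -1.29 and -1.65 in P3 Kir2.1, -0.55, 0.61, 0.08 and -1.10 in P6 control and 0.19, 0.17, -0.36 and 0.02 in P6 Kir2.1. All P6 Kir2.1 pools lay above all P3 Kir2.1 pools, while the control groups overlapped.

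Aldh1l1 encodes a folate enzyme used as a general astrocyte marker. Aldh1l1 read -5.52, -5.01, -2.76 and -3.71 in P3 control, -4.28, -1.67, -5.97 and -1.62 in P3 Kir2.1, -2.04, -5.28, -2.61 and -1.43 in P6 control and -7.13, -6.90, -3.19 and -3.34 in P6 Kir2.1. The lowest levels were those of P6 Kir2.1 pools 1 and 2, and the groups overlapped. Aqp4 encodes the water channel of astrocyte endfeet. Aqp4 read -5.38, -6.00, -6.10 and -6.24 in P3 control, -6.03, -6.27, -5.91 and -6.04 in P3 Kir2.1, -3.55, -5.41, -6.52 and -6.10 in P6 control and -5.92, -6.89, -6.06 and -6.29 in P6 Kir2.1. P6 control pool 1 stood above all other pools, and the groups overlapped.

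The remaining 10 astrocyte markers came and went between pools. Slc1a3, a glutamate transporter of astrocytes and radial glia, was detected in 14 pools. Slc1a3 read -6.22, -5.41, -3.42 and -9.07 in P3 control, -3.28, -5.09, -5.66 and -4.36 in P3 Kir2.1, 0.42, -1.49, -3.30 and -4.10 in P6 control and -9.43, -4.05, -3.58 and -1.96 in P6 Kir2.1. It was not detected in P3 control pool 4 and P6 Kir2.1 pool 1, and it was highest in P6 control pool 1. Mlc1, a membrane protein of astrocyte endfeet, was detected in 11 pools. Mlc1 read -4.30, -9.62, -8.59 and -2.22 in P3 control, -7.44, -3.80, -9.14 and -7.98 in P3 Kir2.1, -0.89, -1.57, -3.61 and -3.23 in P6 control and -1.96, -2.66, -9.86 and -2.19 in P6 Kir2.1. All 4 P6 control pools held it, as did 3 P6 Kir2.1 pools and 2 pools of each P3 group.

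Gfap, the astrocyte intermediate filament, and Gjb6, a gap junction protein, were detected in 7 pools each and in none of the P3 control pools. Gfap read -9.50, -9.58, -9.55 and -9.16 in P3 control, -3.33, -9.68, -9.07 and -5.74 in P3 Kir2.1, -6.61, -9.22, -4.93 and -4.78 in P6 control and -8.43, -8.79, -3.86 and -5.41 in P6 Kir2.1. It was detected in 3 of 4 P6 control pools (1, 3 and 4), in P6 Kir2.1 pools 3 and 4 and in P3 Kir2.1 pools 1 and 4. Gjb6 read -9.70, -9.78, -9.69 and -9.32 in P3 control, -7.03, -6.50, -6.63 and -9.58 in P3 Kir2.1, -6.97, -9.40, -3.02 and -9.80 in P6 control and -1.91, -10.21, -3.11 and -10.60 in P6 Kir2.1. Pools 1 and 3 held it in both P6 groups, as did P3 Kir2.1 pools 1, 2 and 3. Hes5, a Notch target of neural precursors, was also detected in 7 pools. Hes5 read -9.66, -8.02, -3.82 and -3.48 in P3 control, -8.33, -9.77, -7.80 and -5.89 in P3 Kir2.1, -10.43, -9.37, -7.56 and -1.25 in P6 control and -9.20, -0.37, -1.81 and -6.75 in P6 Kir2.1. It was high in P6 Kir2.1 pools 2 and 3 and P6 control pool 4, and further detected in P3 control pools 3 and 4, P3 Kir2.1 pool 4 and P6 Kir2.1 pool 4.

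Sox9, a transcription factor of astrocytes and their precursors, was detected in 4 pools, all at P6. Sox9 read -9.40, -9.29, -9.45 and -8.73 in P3 control, -9.63, -9.57, -8.60 and -9.24 in P3 Kir2.1, -4.81, -9.15, -2.40 and -9.47 in P6 control and -9.72, -6.11, -9.74 and -6.26 in P6 Kir2.1. These pools were P6 control 1 and 3 and P6 Kir2.1 2 and 4, and every P3 pool lay at background. S100b, a calcium-binding protein of astrocytes, was detected in 4 pools as well. S100b read -9.30, -9.32, -9.28 and -5.71 in P3 control, -9.48, -9.43, -8.85 and -9.00 in P3 Kir2.1, -2.75, -8.53, -9.38 and -6.21 in P6 control and -4.54, -9.09, -8.91 and -10.29 in P6 Kir2.1. At P6 these were pools 1 and 4 of control and pool 1 of Kir2.1, and at P3 control pool 4. The other 3 astrocyte markers were detected in fewer than 4 pools and not tested. Ntsr2, a neurotensin receptor of astrocytes, was detected in P6 control pool 1 (-2.15) and in P3 Kir2.1 pools 1 (-6.33) and 2 (-3.19). Slc1a2, the main glutamate transporter of mature astrocytes, was detected by its brightest probe in P6 Kir2.1 pools 2 (-4.76) and 3 (-6.21). A second probe was detected in pool 1 of P3 control (-3.71) and another in pool 3 of P3 Kir2.1 (-4.20), so its probes shared no pool. Gja1, the main astrocyte gap junction protein, was detected only in P6 control pool 1 (-6.87).

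In the oligodendrocyte lineage, Olig1, Olig2 and Pdgfra were highest in 1 pool, P6 control pool 3. Olig1 and Olig2 encode the paired transcription factors that set the lineage. Olig1 read -3.91, -6.20, -5.98 and -3.82 in P3 control, -4.05, -4.80, -3.27 and -5.48 in P3 Kir2.1, -3.85, -0.41, 1.66 and -1.83 in P6 control and -3.26, -1.75, -4.00 and -1.40 in P6 Kir2.1. P6 control pool 3 was the highest of the 16, and pool 1 of the same group lay among the P3 pools. Olig2 read -6.68, -7.59, -7.01 and -5.10 in P3 control, -7.74, -9.10, -7.24 and -8.02 in P3 Kir2.1, -7.06, -6.91, -0.37 and -4.91 in P6 control and -8.16, -8.45, -9.63 and -5.80 in P6 Kir2.1. Olig2 was detected in 7 pools, namely pools 1, 3 and 4 of both control groups and P6 Kir2.1 pool 4, and again P6 control pool 3 was the highest. Pdgfra encodes the growth factor receptor of oligodendrocyte precursors. Pdgfra read -9.42, -9.50, -9.44 and -9.09 in P3 control, -6.68, -9.57, -8.98 and -9.30 in P3 Kir2.1, -5.84, -9.15, -1.53 and -8.23 in P6 control and -5.79, -9.90, -5.13 and -10.35 in P6 Kir2.1. Detection was limited to 5 pools, again pools 1 and 3 of both P6 groups, and P3 Kir2.1 pool 1.

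Sox10, a transcription factor of the whole lineage and of ensheathing cells, was detected in all pools. Sox10 read -6.73, -6.79, -4.38 and -1.91 in P3 control, -1.98, -5.65, -5.08 and -6.22 in P3 Kir2.1, -5.70, -6.15, -0.62 and -2.32 in P6 control and -4.57, -5.89, -0.49 and -5.88 in P6 Kir2.1. It was high in pools of every group, namely P3 control 4, P3 Kir2.1 1, P6 control 3 and 4 and P6 Kir2.1 3. Cspg4, a proteoglycan of the precursors and of pericytes, stayed near background. Cspg4 read -6.42, -6.79, -7.09 and -8.02 in P3 control, -7.90, -7.31, -6.76 and -7.38 in P3 Kir2.1, -7.08, -7.43, -9.30 and -7.51 in P6 control and -6.37, -7.56, -7.11 and -7.05 in P6 Kir2.1. Its lowest level was that of P6 control pool 3, and the 6 pools that held it were P3 control 1 and 2, P6 control 1 and P6 Kir2.1 1, 3 and 4. Bcas1, a gene of oligodendrocytes that are starting to make myelin, was detected throughout. Bcas1 read -3.06, -3.48, -3.58 and -3.51 in P3 control, -3.78, -3.16, -3.37 and -3.55 in P3 Kir2.1, -4.06, -3.14, -0.18 and -3.28 in P6 control and -2.94, -3.74, -3.92 and -3.25 in P6 Kir2.1. P6 control pool 3 stood above the other 15 pools, which lay between -4.06 and -2.94.

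Of the myelin genes, Cnp and Mbp varied widely between pools and Mog and Mag little. Cnp encodes a nucleotide phosphodiesterase of myelin. Cnp read -3.41, -2.64, -2.57 and -4.75 in P3 control, -1.47, -2.01, -3.03 and -1.67 in P3 Kir2.1, -3.66, -7.36, 0.76 and -4.84 in P6 control and -3.33, -3.56, -3.50 and -2.60 in P6 Kir2.1. It was detected in 15 pools, highest in P6 control pool 3 and at background in P6 control pool 2. Mbp encodes myelin basic protein. Mbp read -3.25, -3.99, -2.53 and -1.18 in P3 control, -1.97, -4.66, -5.90 and -5.56 in P3 Kir2.1, -5.52, -0.74, -1.02 and -0.43 in P6 control and -2.31, -0.99, -3.22 and -1.09 in P6 Kir2.1. P6 control pool 1 was low and the other 3 P6 control pools high, and the groups overlapped. Mog encodes a glycoprotein on the myelin surface. Mog read -3.28, -3.80, -3.70 and -3.62 in P3 control, -4.09, -4.02, -3.39 and -3.84 in P3 Kir2.1, -3.38, -3.07, -3.61 and -3.31 in P6 control and -3.87, -4.61, -3.85 and -3.60 in P6 Kir2.1. Its range over all pools was 1.54, with the groups overlapping.

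Mag encodes a myelin protein that faces the axon. Mag read -5.89, -6.48, -6.93 and -6.24 in P3 control, -6.64, -6.59, -6.33 and -6.69 in P3 Kir2.1, -6.74, -6.08, -6.03 and -5.40 in P6 control and -6.82, -4.68, -7.29 and -6.86 in P6 Kir2.1. P6 Kir2.1 pool 2 was the highest, and the groups overlapped. Mobp encodes a myelin basic protein of oligodendrocytes and lay near background. Mobp read -6.81, -7.93, -7.21 and -7.26 in P3 control, -7.11, -6.28, -6.58 and -6.70 in P3 Kir2.1, -6.69, -6.26, -7.14 and -8.16 in P6 control and -7.29, -7.06, -6.63 and -7.48 in P6 Kir2.1. The 12 pools that held it were 1 P3 control pool, 3 P6 control pools and all Kir2.1 pools. Cldn11 encodes the tight junction protein of myelin. Cldn11 read -9.54, -6.61, -4.75 and -9.21 in P3 control, -6.97, -8.08, -7.89 and -4.54 in P3 Kir2.1, -6.16, -8.84, -4.61 and -9.55 in P6 control and -2.52, -10.02, -9.81 and -10.41 in P6 Kir2.1. The 7 pools that held it were P3 control 2 and 3, P3 Kir2.1 1 and 4, P6 control 1 and 3 and P6 Kir2.1 1.

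Among the microglia markers, Itgam, Csf1r and C1qb were read in all 16 pools while markers such as C1qa, Cx3cr1 and Tyrobp were missing from most. Itgam encodes integrin alpha M, a complement receptor subunit of microglia and macrophages. Itgam read 2.87, 2.86, 3.08 and 2.93 in P3 control, 3.65, 3.24, 3.42 and 3.54 in P3 Kir2.1, 4.10, 3.88, 4.24 and 4.29 in P6 control and 3.60, 3.38, 3.34 and 3.49 in P6 Kir2.1. Pools of a group lay close together, the P6 control pools were the highest and the P3 control pools the lowest, and the 2 Kir2.1 groups overlapped in between. Csf1r encodes the growth factor receptor on which microglia depend. Csf1r read -1.60, -2.11, -1.78 and -1.74 in P3 control, -2.79, -2.54, -1.80 and -2.08 in P3 Kir2.1, -1.66, -1.71, -0.34 and -1.59 in P6 control and -0.89, -2.06, -2.95 and -1.38 in P6 Kir2.1. P6 control pool 3 was the highest, and the groups overlapped. Aif1, a calcium-binding protein of microglia, was detected in 11 pools. Aif1 read -9.62, -5.43, -9.62 and -9.26 in P3 control, -6.22, -2.84, -5.14 and -4.39 in P3 Kir2.1, -1.98, -6.68, -2.59 and -3.84 in P6 control and -10.14, -1.58, -4.57 and -9.28 in P6 Kir2.1. All P3 Kir2.1 and all P6 control pools held it. In P6 Kir2.1 it was present in pools 2 and 3 and in P3 control in pool 2.

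The genes of the complement component C1q, C1qb, C1qc and C1qa, which microglia are known to express together, lie side by side on chromosome 4 and were read differently. C1qb read -6.08, -6.02, -5.67 and -5.60 in P3 control, -5.61, -5.44, -4.54 and -4.66 in P3 Kir2.1, -5.76, -5.40, -6.64 and -6.22 in P6 control and -6.76, -6.20, -5.94 and -6.21 in P6 Kir2.1. It was detected in every pool at a low level, and P6 Kir2.1 pools lay below P3 Kir2.1 pools without overlap. C1qc read -9.34, -9.55, -9.48 and -4.11 in P3 control, -9.58, -9.61, -9.03 and -9.34 in P3 Kir2.1, -5.03, -2.90, -2.53 and -9.55 in P6 control and -9.98, -9.96, -9.75 and -10.37 in P6 Kir2.1. It was detected in P3 control pool 4 and in P6 control pools 1, 2 and 3, and no Kir2.1 pool held it. C1qa was detected in P6 control pool 3 alone, at -4.14. The RefSeq promoter windows of C1qb and C1qc, 250 bases before to 50 after a start on GRCm38.p6, are shown because these neighbours were read in 16 and 4 pools. For C1qc that start lies inside the gene as RefSeq places it, so distances are from the window's start. Capitals mark the purine box GAGGAA, known as a site of the myeloid factor that Spi1 encodes, searched on both strands. The C1qb window is chr4:136886151-136886450 and the C1qc window chr4:136892865-136893164, both on the minus strand.
C1qb: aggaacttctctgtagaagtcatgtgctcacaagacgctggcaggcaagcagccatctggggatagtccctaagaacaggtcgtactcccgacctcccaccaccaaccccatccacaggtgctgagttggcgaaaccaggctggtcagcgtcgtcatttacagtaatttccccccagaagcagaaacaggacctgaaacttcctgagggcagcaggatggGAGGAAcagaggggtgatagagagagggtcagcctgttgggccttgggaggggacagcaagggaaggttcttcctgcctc
C1qc: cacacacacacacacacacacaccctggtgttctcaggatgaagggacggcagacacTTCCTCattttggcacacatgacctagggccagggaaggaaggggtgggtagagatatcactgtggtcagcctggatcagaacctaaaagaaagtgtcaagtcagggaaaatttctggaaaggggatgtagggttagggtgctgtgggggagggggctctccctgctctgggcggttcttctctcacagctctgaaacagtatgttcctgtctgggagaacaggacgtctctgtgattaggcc
Each window held 1 match, 30 bases before the start on the gene's strand in C1qb and 193 bases before it on the opposite strand in C1qc. Of 32851 RefSeq promoter windows of this length, 28.3% held the box on either strand, and a match is a description of the letters only. C1qa had no entry in the promoter table used here. Spi1 itself was detected in 0 of the 16 pools.

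Tyrobp, the signalling adaptor of microglial receptors, was detected in 4 pools. Tyrobp read -9.50, -9.58, -9.53 and -3.17 in P3 control, -9.70, -9.67, -7.17 and -9.41 in P3 Kir2.1, 0.22, -9.24, -0.34 and -9.20 in P6 control and -10.01, -10.001, -8.91 and -3.70 in P6 Kir2.1. P6 control pools 1 and 3 were high, P3 control pool 4 and P6 Kir2.1 pool 4 lower, and the rest at background. Cx3cr1, the fractalkine receptor of microglia, was detected in P6 control pools 1 (-2.08) and 4 (-6.09) and in P3 Kir2.1 pool 2 (-5.10), and it was not tested. P6 control pool 1 therefore held Aif1, C1qc, Tyrobp and Cx3cr1, and P6 control pool 3 held Aif1, C1qa, C1qc and Tyrobp. P3 control pool 4 was the only P3 pool with C1qc or Tyrobp.

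**Figure D3:**
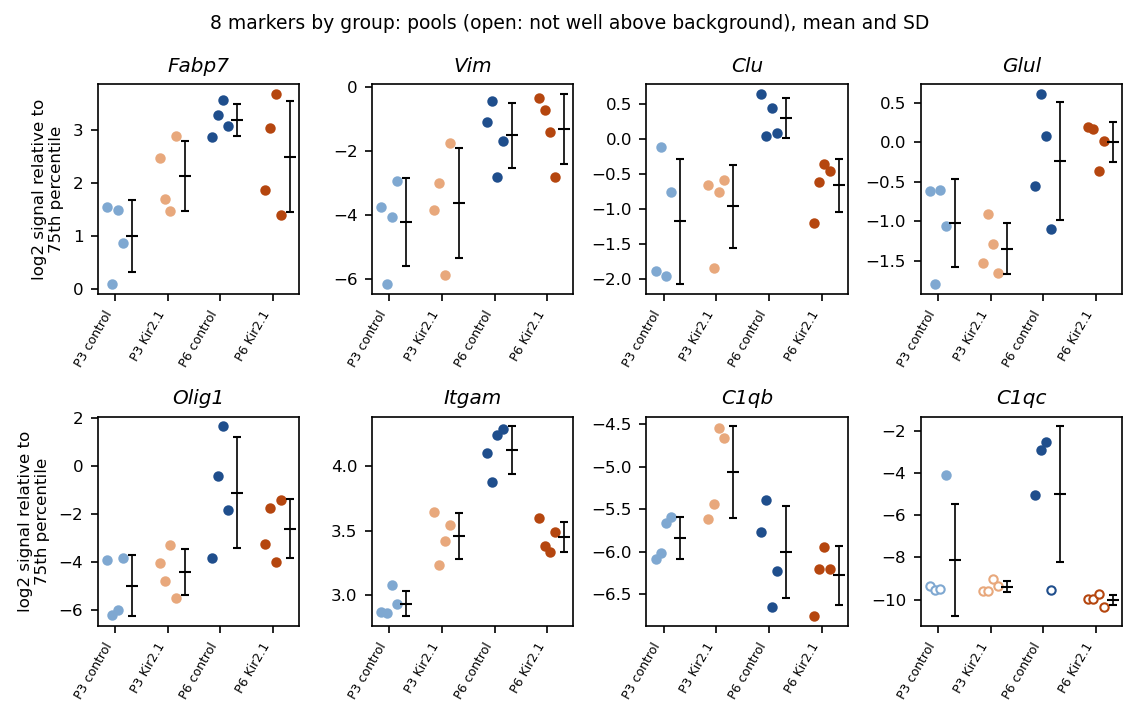
Log2 signal relative to the array's 75th percentile (vertical axis) of 8 markers in each pool of the 4 groups (points, filled where well above background), with the mean and SD over 4 pools in black. Itgam pools cluster tightly by group, whereas C1qc is split between detected pools and pools at background.

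Several markers had more than 1 probe, and these did not always follow each other. For Itgam, the bright probe lay between 2.86 and 4.29, while a second probe lay between -8.11 and -6.46, detected in 9 pools, and another between -8.69 and -4.19, detected in 4. Over the 16 pools, which share their libraries, these dim probes had Pearson correlations of 0.0911 and 0.0946 with the bright one. The last of them was highest in P6 control pool 1, the pool with the most markers. For Csf1r, a second probe was detected in all pools with a correlation of -0.205 to the first, and another in 0. The other probes of Mbp were detected in 1 and 0 pools, and those of Gfap and Mobp in 0. The 2 probes of Ntsr2 had a correlation of 0.965 and those of Aqp4 0.467. The second probe of Cx3cr1 was detected in 0 pools, with a correlation of -0.226. The values of Itgam, Csf1r, Mbp, Gfap, Mobp, Slc1a2 and Cx3cr1 here thus rest on 1 probe that the gene's other probes did not follow, and which of them reads the gene was not tested. Siglech, a microglial receptor gene outside the 36, had a probe between 2.79 and 4.28 in all pools.

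**Figure D4:**
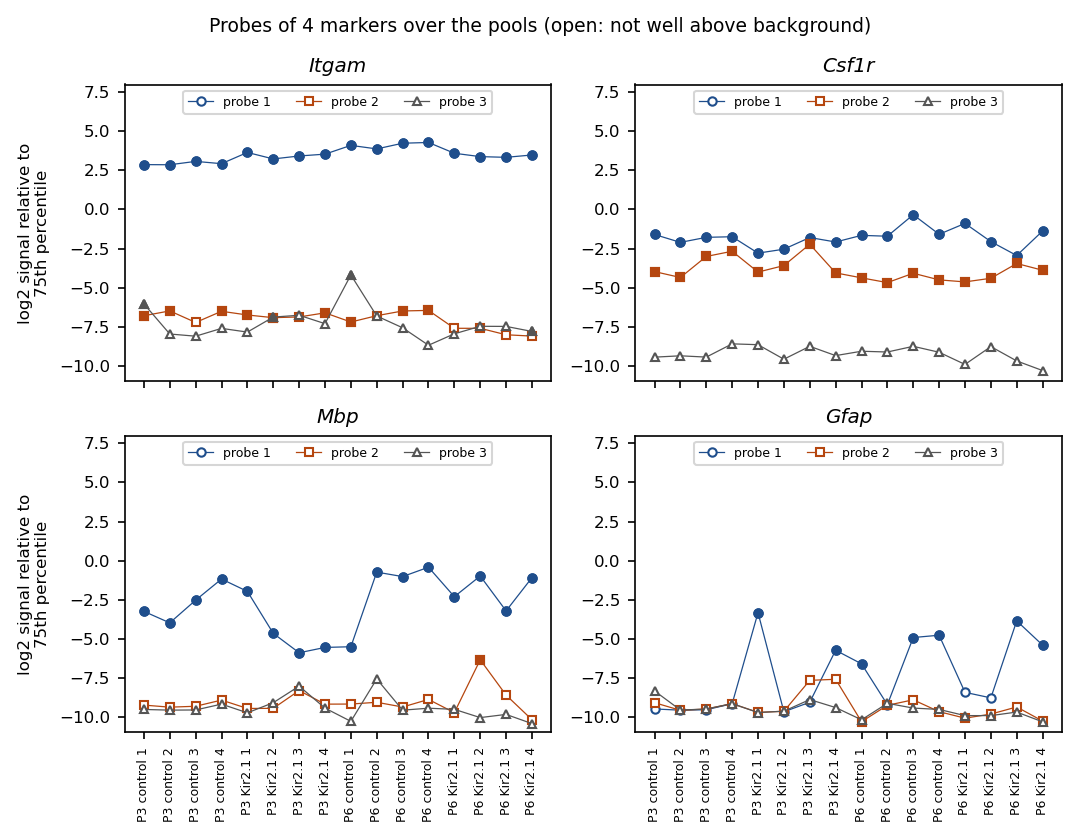
Log2 signal relative to the array's 75th percentile of the 3 probes of Itgam, Csf1r, Mbp and Gfap (lines, ranked by mean) over the 16 pools. Filled symbols are well above background. The brightest probe of Itgam stays between 2.86 and 4.29 in every pool while its other probes lie at -4.19 or below.

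Between P3 and P6 in control cells, Fabp7 and, by its bright probe, Itgam were called higher, and no marker was called lower. Fabp7 went from 0.996 ± 0.682 to 3.20 ± 0.30 (SD, n = 4 each), a log2 change of 2.21 (SE 0.51, limma adjusted p = 0.0381). Itgam went from 2.94 ± 0.0996 to 4.13 ± 0.185 (SD, n = 4 each), a log2 change of 1.19 (SE 0.19, limma adjusted p = 0.0046). Its second probe, near background, read -6.80, -6.49, -7.23 and -6.52 in P3 control and -7.20, -6.80, -6.50 and -6.46 in P6 control. Another probe of Itgam also overlapped between these groups, and which probe reads the gene was not tested. Of 21070 features tested, 1.33% were called higher in this comparison. The call of Fabp7 ended when any of the P3 control or P6 control pools or P3 Kir2.1 pool 1 was left out (limma adjusted p = 0.0508 to 0.10), with its change between 1.90 and 2.39. With only pools 2 and 4 of P6 control kept, those of the group with the fewest markers and a choice made after seeing the data, the change of Fabp7 was 2.19 (limma adjusted p = 0.129) and that of Itgam 1.15 (limma adjusted p = 0.0364). Of the settings run, including each pool left out, only a fit restricted to the 2 groups ended Itgam's call (limma adjusted p = 0.0621). Vim and Clu also had groups without overlap, so that 4 markers, Fabp7, Vim, Clu and Itgam, lay higher in every P6 control pool than in any P3 control pool, a pattern met by 6.01% of features. The log2 change was 2.73 for Vim (SE 0.90, limma adjusted p = 0.129) and 1.48 for Clu (SE 0.42, limma adjusted p = 0.0815). Leaving out P3 control pool 2 brought Clu to 1.83 (limma adjusted p = 0.0398).

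For the other named markers of this comparison, the changes did not pass. Olig1 had a log2 change of 3.87 (SE 1.03, limma adjusted p = 0.0673), which passed without P6 control pool 1 (4.78, limma adjusted p = 0.0237). Pdgfra had 3.17 (SE 1.52, limma adjusted p = 0.294), Aif1 4.71 (SE 1.73, limma adjusted p = 0.168), and the P6 control mean of Pdgfra was at least 2.14-fold above the P3 control bound, with 2 of 4 pools detected. Without P6 control pool 3 the change of Pdgfra was 1.62. Of the 31 markers tested, 27 had a positive change, with a median of 1.41 against -0.07 over all features, and 8 had an unadjusted p under 0.05, as did 17.9% of all features. The median was 2.21 over 13 astrocyte and radial glia markers, 0.53 over 12 of the oligodendrocyte lineage and 2.15 over 6 microglia markers. The 31 passed a filter of detection in at least 4 pools, some of them mostly through P6 control pools, as C1qc with 3 of its 4, so these counts and medians describe the values and support nothing. The 5 markers left out by the filter were Slc1a2, Gja1, Ntsr2, C1qa and Cx3cr1.

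Between P3 and P6 in Kir2.1 cells no marker passed, against 0.878% of features called. Glul had a log2 change of 1.35 (SE 0.37, limma adjusted p = 0.112), from -1.35 ± 0.326 to 0.0035 ± 0.253 (SD, n = 4 each), and was the only marker higher in all P6 than in all P3 Kir2.1 pools, a pattern of 2.94% of features. C1qb had a change of -1.21 (SE 0.33, limma adjusted p = 0.108), from -5.06 ± 0.54 to -6.28 ± 0.345 (SD, n = 4 each). C1qb and C1qc lay lower in all P6 Kir2.1 pools, as did 7.61% of features, but C1qc was at background in both groups. Vim had a change of 2.31 (SE 0.90, limma adjusted p = 0.244), Mbp 2.62 (SE 1.14, limma adjusted p = 0.295), Olig1 1.80 (SE 1.03, limma adjusted p = 0.445) and Csf1r 0.49 (SE 0.43, limma adjusted p = 0.651). Csf1r ranged from 0.18 without P6 Kir2.1 pool 1 to 0.86 without P6 Kir2.1 pool 3. Of the 31 markers, 20 had a positive change with a median of 0.32, against -0.16 over all features, and 4 had an unadjusted p under 0.05, as did 15% of features.

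With Kir2.1 at P3, Itgam was the only marker whose groups did not overlap, and no marker passed. It lay higher in all 4 Kir2.1 pools, with a log2 change of 0.53 (SE 0.19, limma adjusted p = 0.599), from 2.94 ± 0.0996 to 3.46 ± 0.178 (SD, n = 4 each). Non-overlap in this direction was met by 4.08% of features, and 0.00949% were called. C1qb had 0.78 (SE 0.33, limma adjusted p = 0.718), Fabp7 1.14 (SE 0.51, limma adjusted p = 0.739), and Gfap 2.49 (SE 1.45, limma adjusted p = 0.834), with 2 of 4 Kir2.1 pools and 0 control pools detected and a bound of at least 1.26-fold. Without P3 Kir2.1 pool 1 the change of Gfap was 1.28. Mbp had -1.78 (SE 1.14, limma adjusted p = 0.847) and Mobp 0.63 (SE 0.39, limma adjusted p = 0.837). Of the 31 markers, 16 had a positive change, the median was 0.22 against -0.03 over all features, and 4 had an unadjusted p under 0.05, as did 6.53% of features.

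With Kir2.1 at P6, Itgam, Clu and C1qc lay lower in every Kir2.1 pool than in any control pool, and none passed the adjusted threshold. For C1qc this order rests on 2 readings at background, P6 control pool 4 (-9.55) and P6 Kir2.1 pool 3 (-9.75). Itgam had a log2 change of -0.68 (SE 0.19, limma adjusted p = 0.079), from 4.13 ± 0.185 to 3.45 ± 0.116 (SD, n = 4 each). C1qc had -5.01 (SE 1.40, limma adjusted p = 0.0837), and its P6 control mean was at least 7.53-fold above the Kir2.1 bound, with 3 of 4 control and 0 of 4 Kir2.1 pools detected. For such a bound, each dim pool was given its probe's own signal or the lowest signal well above background on that array, whichever was higher. Clu had -0.97 (SE 0.42, limma adjusted p = 0.255), from 0.30 ± 0.286 to -0.67 ± 0.375 (SD, n = 4 each). Non-overlap in this direction was met by 5.69% of features, and 1.76% were called. An intensity trend with a robust prior brought Itgam past the threshold (limma adjusted p = 0.0050), as did another background correction (limma adjusted p = 0.0406). Leaving out P6 control pool 4, at background for C1qc, brought C1qc past it (-6.53, limma adjusted p = 0.0189). With another background correction (normexp), C1qc had -1.70 (limma adjusted p = 0.0649). With P6 control pools 2 and 4 alone, the change was -0.63 for Itgam (limma adjusted p = 0.211), -3.79 for C1qc (limma adjusted p = 0.303) and -0.73 for Clu (limma adjusted p = 0.559).

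Among the other markers at P6, Olig2 had a log2 change of -3.20 with Kir2.1 (SE 1.25, limma adjusted p = 0.208), Mog -0.64 (SE 0.26, limma adjusted p = 0.221) and Aldh1l1 -2.30 (SE 1.24, limma adjusted p = 0.358), all with overlapping groups. Without P6 control pool 3 the change of Olig2 was -1.72. Cx3cr1, detected in 2 P6 control and 0 P6 Kir2.1 pools, was at least 2.41-fold brighter in control by its bound on 1 probe, and it was not tested. Its P6 control levels were -2.08, -9.06, -9.35 and -6.09, so the mean behind this bound rests mostly on pool 1. Of the 31 markers tested, 24 had a negative change, as did 11866 of the 21070 features. The markers' median was -0.70 against -0.13 over all features, and 5 had an unadjusted p under 0.05, as did 17.5% of features. The median was -0.89 over astrocyte and radial glia, -0.58 over oligodendrocyte lineage and -1.65 over microglia markers, the last with 6 of 6 negative. Some of the 31 passed the filter mostly through P6 control pools, as C1qc did. These counts and medians therefore describe the values and support nothing. P6 control pools 1 and 3 held the most markers, and their part in these medians was not tested.

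The test of whether the change with Kir2.1 differed between P6 and P3, the interaction, passed for no marker, against 0.0902% of features called. Itgam, which lay higher with Kir2.1 at P3 and lower at P6, had the lowest p (log2 difference -1.20, SE 0.26, limma adjusted p = 0.0951). It passed with an intensity trend and robust prior (limma adjusted p = 0.00297). Next came Aif1 (-6.46, SE 2.44, limma adjusted p = 0.347), Fabp7 (-1.84, SE 0.72, limma adjusted p = 0.367), C1qb (-1.05, SE 0.47, limma adjusted p = 0.442) and Clu (-1.18, SE 0.59, limma adjusted p = 0.507). In the oligodendrocyte lineage, Olig1 had -2.07 (SE 1.46, limma adjusted p = 0.66) and Cspg4 1.07 (SE 0.69, limma adjusted p = 0.625). Without P6 control pool 3 these were -1.15 for Olig1 and 0.58 for Cspg4, and with normexp Cspg4 turned to -0.0192. Of the 31 markers, 26 had a negative interaction, as did 11105 of the 21070 features. The markers' median was -1.05, against -0.07 over all features, and 4 had an unadjusted p under 0.05, as did 10.7% of features. Some passed the filter mostly through P6 control pools, so these counts and the median support nothing. The age comparisons and the Kir2.1 comparisons share the same pools, so their values are not independent of each other.

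Further markers of the same classes, 15 astrocyte, 14 oligodendrocyte lineage and 15 microglia genes, were most often detected in P6 control pool 1 (astrocyte and microglia genes) or pool 3 (oligodendrocyte lineage). P6 control pool 1 held 6 of the 9 microglia genes with a variable presence, among them P2ry12, Tmem119, Ctss, Fcgr3, Cd53 and Gpr34, and the other pools 0 to 4. P6 control pool 3, which held C1qa, C1qc, Tyrobp and Aif1, held 1 of these 9. The P6 control pools held 6, 4, 1 and 1 of them and the P6 Kir2.1 pools 0, 3, 2 and 3, which overlapped. Fcer1g, the gamma chain of immune receptors, read -0.50, -5.45, -5.28 and -5.77 in P6 control and between -6.30 and -4.88 in all other groups. P6 control pool 3 held 5 of the 7 variable oligodendrocyte lineage genes, against 0 to 3 elsewhere, and it alone held Gpr17, a receptor of committed precursors (-1.68), and Sox8 (-2.07). P6 control pools 1 and 3 held 8 and 7 of the 11 variable astrocyte genes, as P6 Kir2.1 pools 2 and 4 held 7 each. Laptm5, Spi1, Enpp6, Myrf and Opalin were detected in 0 pools. Of the tested further genes, Sparcl1, a secreted astrocyte protein that neurons also express, rose from P3 to P6 in control cells (1.81, SE 0.27, limma adjusted p = 0.00392) and in Kir2.1 cells (2.67, SE 0.27, limma adjusted p = 0.00166). Siglech, by its bright probe, fell with Kir2.1 at P6 (-0.92, SE 0.21, limma adjusted p = 0.0457), and whether that probe reads the gene was not tested. No other further gene was called in any of the 5 comparisons, with 11, 7 and 5 tested.

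Markers of other cells of the bulb moved with some of these values, and their part in the results was not tested. Of 13 mitral and tufted cell markers, 11 to 12 were detected in each pool, among them Cdhr1, Eomes, Tbx21 and Tbr1 in all 16, and Kcna2 in 0. Of the 12 tested, Reln was higher with Kir2.1 at P6 (3.89, SE 0.74, limma adjusted p = 0.0208). Reln was detected in all P6 Kir2.1 pools but in P6 control only in pool 1, so this change starts mostly from background. Thy1 rose from P3 to P6 in control cells (1.84, SE 0.37, limma adjusted p = 0.0186) and in Kir2.1 cells (2.04, SE 0.37, limma adjusted p = 0.026), and Tbx21 rose in Kir2.1 cells (2.15, SE 0.46, limma adjusted p = 0.0463). Of 16 interneuron markers, 12 to 14 were detected in P6 control pools, 8 to 12 in P3 control, 9 to 12 in P3 Kir2.1 and 9 to 12 in P6 Kir2.1. Their summed signal, as a percentage of the 75th percentile, was 444 to 1029 in P6 control, 198 to 251 in P3 control, 179 to 293 in P3 Kir2.1 and 156 to 346 in P6 Kir2.1. In control cells Gad1, Gad2 and Meis2 rose from P3 to P6, by 6.23, 6.87 and 4.32 (SE 1.5, 1.32 and 0.59, limma adjusted p = 0.0454, 0.0158 and 0.00313), and Penk fell with Kir2.1 at P6 (-6.32, SE 1.26, limma adjusted p = 0.0269). In P3 control, Gad1 was detected only in pool 3 and Gad2 only in pool 2, so their changes start mostly from background. Penk was detected in 4 pools, P3 control 4 and P6 control 1, 2 and 4, and in no Kir2.1 pool. It passed the filter mostly through P6 control pools, so its call describes the values and supports nothing. P6 control pools 1 to 4 held 10, 8, 8 and 9 of the 12 variable interneuron markers, and 3 pools of other groups also held 8.

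The ensheathing cell list shares Fabp7 and Sox10 with the 36 markers. Of its 9 genes, 5 to 8 were detected in P6 control pools, 5 to 6 in P3 control, 5 to 7 in P3 Kir2.1 and 5 to 7 in P6 Kir2.1. Sox10 (-0.49) and Fabp7 (3.69) both reached their maximum in P6 Kir2.1 pool 3. Npy (3.46) and Mybpc1 (-1.69), further ensheathing cell markers, were highest in that same pool. Of the list's 5 genes with a variable presence, however, that pool held 2 (Npy and Frzb), without Ngfr, Foxd3 and Matn2. It held 6 of the 9 genes in all, against 8 in P6 control pool 1. Of 14 vascular and blood cell markers, 11 were detected in P6 Kir2.1 pool 1, more than in any other pool, with Cldn5, the endothelial tight junction gene, at 1.54, 1.24, -9.86 and -8.10 in the P6 Kir2.1 pools. Cd74, Tek and Rgs5 of that list were detected in 0 pools. The glial markers in P6 control pools 1 and 3 thus stood beside 7 and 6 of the 9 variable vascular and blood markers, which ranged from 2 to 9 over all pools.

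**Figure D5:**
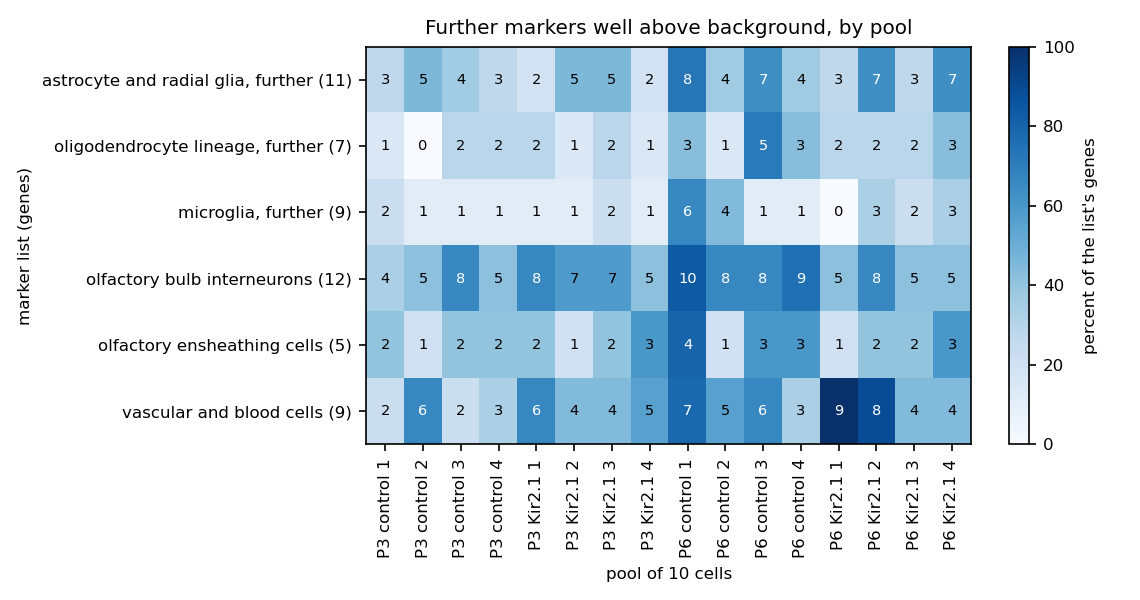
Number of further markers detected in each pool (printed in the cell, shaded by the percentage of the list) for the genes of each list that were detected in 1 to 15 pools, whose number stands in brackets. P6 control pool 1 holds 6 of 9 further microglia markers and P6 control pool 3 holds 5 of 7 of the oligodendrocyte lineage.

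The genes whose levels over the 16 pools were most like those of 6 markers were named by Pearson correlation over all tested named genes, as a description of pools that share libraries, slides and depth. Among the genes nearest to C1qa were Pparg (0.940) and Ifna1 (0.917), and among those nearest to Cx3cr1 were B3gnt2 (0.922) and Phc2 (0.856). These 2 markers were detected in 1 and 3 pools, and their other levels lay at background. Aqp4 was most like Ocstamp (0.878), Fcer1g (0.867) and Sorcs1 (0.865). Aqp4 and these genes were all highest in P6 control pool 1, at -3.55, -3.52, -0.50 and -1.41 in that order. How far their correlations rest on that pool was not tested. Slc1a3 was most like Ccdc181 (0.828), Baz2a (0.824) and Gad1 (0.792). Olig1 was most like Rap1gap (0.869), Csnk1a1 (0.823) and Sel1l (0.803), and Mbp most like Lmod3 (0.859), Cdc34 (0.819) and Nat8f4 (0.75). None of these genes was among the 36 markers. The variable markers were also compared with each other, leaving out Slc1a2, Gja1 and C1qa. The highest correlations were Ntsr2 with Cx3cr1 (0.831, 2 shared pools), Gjb6 with Pdgfra (0.821, 5 shared pools) and Sox9 with Tyrobp (0.801, 3 shared pools). These pairs joined different classes, as did most of the pairs compared.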

How the data were processed

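Each of 16 pools of 10 hand-picked mitral cells was measured on 1 one-colour Agilent array, and the images were read by Feature Extraction 10.7.3.1 (Agilent), per the submitters' processing notes. Per the file headers, the deposited scanner tables give a background-subtracted, linear processed intensity per spot. The deposited value table holds the same intensity divided by each array's 75th percentile over all gene spots (ratio 0.996 to 1.003 for nearly all probes). It is not centred, with array medians of 0.0337 to 0.12. The array was designed on mm9, per the file headers, so no gene coordinates are given besides those of the RefSeq promoter windows.

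Without control spots the array held 55681 probes, of which 26582 received a symbol by RefSeq accession (GRCm38.p6). Outlier spots were left out and the other spots of a probe averaged. From these probes, 83 whose spots were all outliers on some array were then dropped. Scaling of the log2 intensities used the 75th percentile over 12103 probes that were well above background everywhere. The test took probes well above background in 4 or more of the 16 pools, with 1 probe per gene, that of the highest mean (21070 features, 12035 named). One limma 3.58.1 model in R 4.3.3 held the 16 arrays (lmFit and eBayes, 12 residual degrees of freedom). P-values were adjusted by Benjamini-Hochberg over the 21070 features of a comparison, with a threshold of 0.05. The test was checked on simulated data with normally distributed noise, a setting that does not cover markers split between detected and background pools. The number of arrays limits precision.

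All 36 markers are accounted for, and levels per pool are given for those detected in at least 4 pools. Changes are given for called markers, otherwise for the 2 of lowest p per class and comparison, and for markers whose groups do not overlap. Up to 4 genes per further list were to be named by the number of pools, and others were named after their values were seen. A few genes that these rules select are not reported here. The markers and lists were chosen with earlier results of these data known. The numbers of the pools do not pair them: 24 correlations of deviations between same-numbered pools lay between -0.0282 and 0.0308. Alternatives were another scaling, normexp (offset 50, on median signals, since the tables used here give no mean signal), quantile normalization, the deposited table, other filters and probes, a floor, a trend, array weights, a replicate block, 2-group fits and each pool left out. P6 control pools 2 and 4 alone were chosen after seeing the data.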

Additional observations from a re-analysis of the deposited data

Results flagged for a closer look

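In groups of 4 pools, 1 pool lay far from the other 3 in 12 of 120 combinations of marker and group with at least 1 detected pool, by Dixon's criterion. Chance meets it in about 1 in 20 groups of like values, a share that does not apply here: in 7 of the 12 the pool was the only one of its group with the marker detected (S100b, C1qc, Tyrobp, Aif1, Cx3cr1, Ntsr2 and Cldn11), and in Gjb6 and Mlc1 the only one without. In P3 control pool 4, 3 markers stood above the rest of the group: S100b (-5.71), C1qc (-4.11) and Tyrobp (-3.17). The other pools that stood above their group were P3 control pool 2 for Aif1 (-5.43), P3 Kir2.1 pool 2 for Cx3cr1 (-5.10), P6 control pool 1 for Ntsr2 (-2.15), P6 control pool 3 for Csf1r (-0.34) and P6 Kir2.1 pool 1 for Cldn11 (-2.52). Pools below their group were P3 Kir2.1 pool 4 for Gjb6 (-9.58), P3 Kir2.1 pool 2 for Clu (-1.85), P6 Kir2.1 pool 3 for Mlc1 (-9.86) and P6 control pool 1 for Mbp (-5.52).

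Itgam, by its bright probe, lay on opposite sides of control with Kir2.1 at the 2 ages. Its second probe, near background, overlapped between the groups at P3 and lay lower with Kir2.1 at P6. Another probe of Itgam overlapped at both ages. What follows is for the bright probe. Every Kir2.1 pool lay above every control pool at P3 (0.53) and below at P6 (-0.68), and the difference between these changes had a limma adjusted p of 0.0951.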

How the results depend on the processing

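The number of markers called from P3 to P6 in control cells was 2, and 1 with scaling over all gene probes, the deposited value table, no filter on dim probes, the replicate block or P6 control pools 2 and 4 alone. It was 0 with only the 2 groups compared. Leaving out single pools gave 1 to 2. The call lost was that of Fabp7, and with only the 2 groups also that of Itgam (limma adjusted p = 0.0621). Fabp7 had a limma adjusted p of 0.0531 to 0.129 in the settings that lost it and 0.0215 to 0.129 over all 13. With Kir2.1 at P6 the count was 0, and 1 (Itgam) with normexp or an intensity trend and robust prior. Leaving out single pools gave 0 to 1. The interaction count was 0, and 1 with the trend and robust prior. At P3, and from P3 to P6 in Kir2.1 cells, it was 0 throughout. The interaction of Cspg4 turned from 1.07 to -0.0192 with normexp. The causes were not tested.

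The mean number of markers detected per pool, by the software's positive and significant flag, came to 24 for P3 control, 27.75 for P3 Kir2.1, 29.25 for P6 control and 27.25 for P6 Kir2.1, against 20.8, 22.5, 26.5 and 24. Counts over all features, with the range over 13 settings (12 for the interaction), were 2 (0 to 25) with Kir2.1 at P3, 370 (20 to 717) with Kir2.1 at P6, 281 higher and 264 lower (181 to 884 in all) from P3 to P6 in control cells, 185 (24 to 259) in Kir2.1 cells and 19 (9 to 99) for the interaction. Leaving out single pools gave 0 to 9, 172 to 413, 235 to 586, 29 to 202 and 9 to 43. The same numbers do not pair pools, and the replicate block ended the call of Fabp7 (limma adjusted p = 0.077), kept that of Itgam and brought no other marker past the threshold. Over all features it moved the counts to 0, 182, 326, 53 and 9, in the order above. The further genes were not refitted with it. A slide block could not be fitted for age. Matching by a gene name column was not run, as the tables used here hold none. Markers near background are limited by signal.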
